A study of Canis lupus with 23 samples.

Results

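Oxidative phosphorylation (OXPHOS) genes encode the subunits of the respiratory chain and of ATP synthase, the machinery in the inner mitochondrial membrane that turns electrons from nutrients into ATP. Complex I (NADH dehydrogenase) and complex II (succinate dehydrogenase) feed electrons into the chain, complex III (the cytochrome bc1 complex) passes them to cytochrome c, complex IV (cytochrome c oxidase) hands them to oxygen, and complex V (ATP synthase) uses the resulting proton gradient to make ATP. Most subunits are encoded in the nucleus and are made in nearly every cell, while a few subunits of complex IV and of ATP synthase have isoforms that differ between tissues. The genes were taken from the platform annotation by symbol: those starting with NDUFA, NDUFB, NDUFC, NDUFS, NDUFV, UQCR, COX4, COX5, COX6, COX7, COX8 or ATP5, together with SDHA, SDHB, SDHC, SDHD and CYC1 and without the NDUFAF assembly factors. This rule found 64 genes, read by 125 probesets, among 15115 genes in all. By prefix, 35 belonged to complex I, 4 to complex II, 8 to complex III, 7 to complex IV and 10 to complex V. The prefix also brings in genes whose product is not only, or not at all, a subunit of the complex of that name: NDUFA4, known in human cells as a subunit of complex IV, and its paralog NDUFA4L2; NDUFAB1, the mitochondrial acyl carrier protein; ATP5IF1, the inhibitor of ATP synthase; and COX7A2L, which joins complexes III and IV. The genes of the chain that are encoded by mitochondrial DNA were not measured by a named probeset here, and COX5A was read only by probesets with several gene symbols and was not used.

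The study profiled 23 tumors of as many pet dogs, each on its own Affymetrix Canine Genome 2.0 array, and the dogs had not been treated for the disease. There were 7 lymphomas (of lymphocytes), 5 melanomas (of pigment cells), 4 sarcomas (of connective tissue, 2 of them labelled as soft tissue sarcoma, STS, and 2 as sarcoma), 3 transitional cell carcinomas of the bladder (TCC), and 1 tumor each labelled hepatocellular carcinoma (HCC), nasal tumor, HSA (hemangiosarcoma, of vessel-lining cells) and histiocytic sarcoma. The biopsies came from dogs enrolled in cohorts that were partly set by breed (Scottish terriers with TCC, golden retrievers with lymphoma), while other cohorts took various breeds. The paper reports, from what it calls a cursory evaluation, that breed did not affect its clustering of the tumors. The labels give neither breed nor age of a tumor's donor, so tumor type and breed cannot be told apart in the comparisons here. All values are log2(signal + 16), averaged over the probesets of a gene, and 62 of the 64 genes were among the 9972 of 15115 that passed a filter on low values (a value over 7.03, the overall median, in at least 3 of the 23 tumors). COX4I2 and COX6A2 did not pass, and the counts below cover the 62 that did. Levels are compared between tumors for 1 gene at a time, never between genes.

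Markers of the labelled origins were high in the tumors of that label, but the lymphocyte and fibroblast genes were also high in some tumors of other labels. All 9 lymphocyte genes that passed the filter were called higher in lymphoma, all 6 melanocyte genes in melanoma, all 8 urothelial and epithelial genes in TCC, and 5 of 6 fibroblast genes in sarcoma. UPK1A, UPK1B, UPK2 and UPK3A passed the filter only through TCC, and DCT and TYR only through melanoma. MLANA and SLC45A2 would not have passed without the melanomas, nor CD79B without the lymphomas. The filter thus partly set the counts of the melanocyte, urothelial and epithelial, and lymphocyte genes. TYRP1, a melanocyte gene that did not pass, was 5.07 to 9.61 in melanoma. Before the filter, the mean of 7 melanocyte genes was 10.58 to 11.12 in melanoma and at most 6.34 elsewhere. The mean of 8 urothelial and epithelial genes was 11.82 to 12.14 in TCC and at most 8.68 elsewhere. The mean of 9 lymphocyte genes was 9.71 to 11.73 in lymphoma, 9.79 in the histiocytic sarcoma and 9.39 in the HSA, and lymphoma 1 had the 9.71. The mean of 6 fibroblast genes was 12.56 to 13.20 in sarcoma and reached 12.97 in melanoma 3. The mean level of 10 hepatocyte genes was 14.28 in the HCC and at most 6.24 in any other tumor. The HSA had the highest mean of 5 endothelial genes (10.68, against at most 9.18 elsewhere) and the histiocytic sarcoma the highest mean of 5 macrophage genes (11.32, followed by 10.85 in the HSA). The histiocytic sarcoma carried a strong skeletal muscle signal, with 14 of 16 muscle genes above 9 and a mean of 11.26, while the mean in the other tumors ran from 5.20 to 7.39. The 3' over 5' ratio of the array's control transcripts (log2), which is higher where RNA is degraded or incompletely copied, ranged from 3.74 to 5.40, and was 3.74 to 4.56 in the lymphomas and 5.38 in the HCC. As bulk tissue was measured, fewer cells of a type and less RNA per cell cannot be told apart.

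The OXPHOS genes varied little from tumor to tumor compared with other genes. The standard deviation (SD) over the 23 tumors had a median of 0.48 over the 62 genes and of 0.71 over all 9972 genes, and 59 of the 62 were less variable than the median gene. Within the 4 replicated types the medians were 0.37 and 0.56. The genes were not matched for signal level, and its part in this difference was not tested. The least variable was SDHD, a membrane anchor subunit of complex II (SD 0.25, with 9.70 to 10.76 over the 23 tumors). The most variable was COX7A1, the heart and skeletal muscle isoform of a small complex IV subunit (SD 1.5), followed by NDUFA4L2 (1.21) and ATP5MC1 (0.74), one of the genes for the membrane ring of ATP synthase.

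The tumors were first set side by side by complex, as the median over the genes of a complex of the deviation from each gene's mean over the 23 tumors. The HCC stood highest for each of the 5 complexes, with 0.73 for complex I, 1.49 for II, 0.94 for III, 0.83 for IV and 0.86 for V, although the median over all 9972 genes was lowest in the HCC (-0.31). All 5 complexes were also above 0 in the nasal tumor and in lymphomas 0, 3 and 5. All 5 lay below 0 in 6 tumors, namely 3 of the 4 sarcomas, 2 of the 5 melanomas and the HSA. Over all 62 genes the median deviation averaged 0.14 ± 0.20 in lymphoma (SD, n = 7), -0.13 ± 0.18 in melanoma (n = 5), -0.22 ± 0.10 in sarcoma (n = 4) and 0.00 ± 0.11 in TCC (n = 3). The sarcomas, at -0.37 to -0.13, lay just under all lymphomas (-0.12 to 0.43) and TCC (-0.12 to 0.08) but within the range of the melanomas (-0.40 to 0.08). The clearest order was that of complex III, with -0.78 to -0.40 in the 4 sarcomas, -0.34 to 0.11 in melanoma, -0.26 to 0.40 in the lymphomas and 0.19 to 0.41 in TCC, so that the sarcomas lay below every tumor of the other 3 types.

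**Figure D1:**
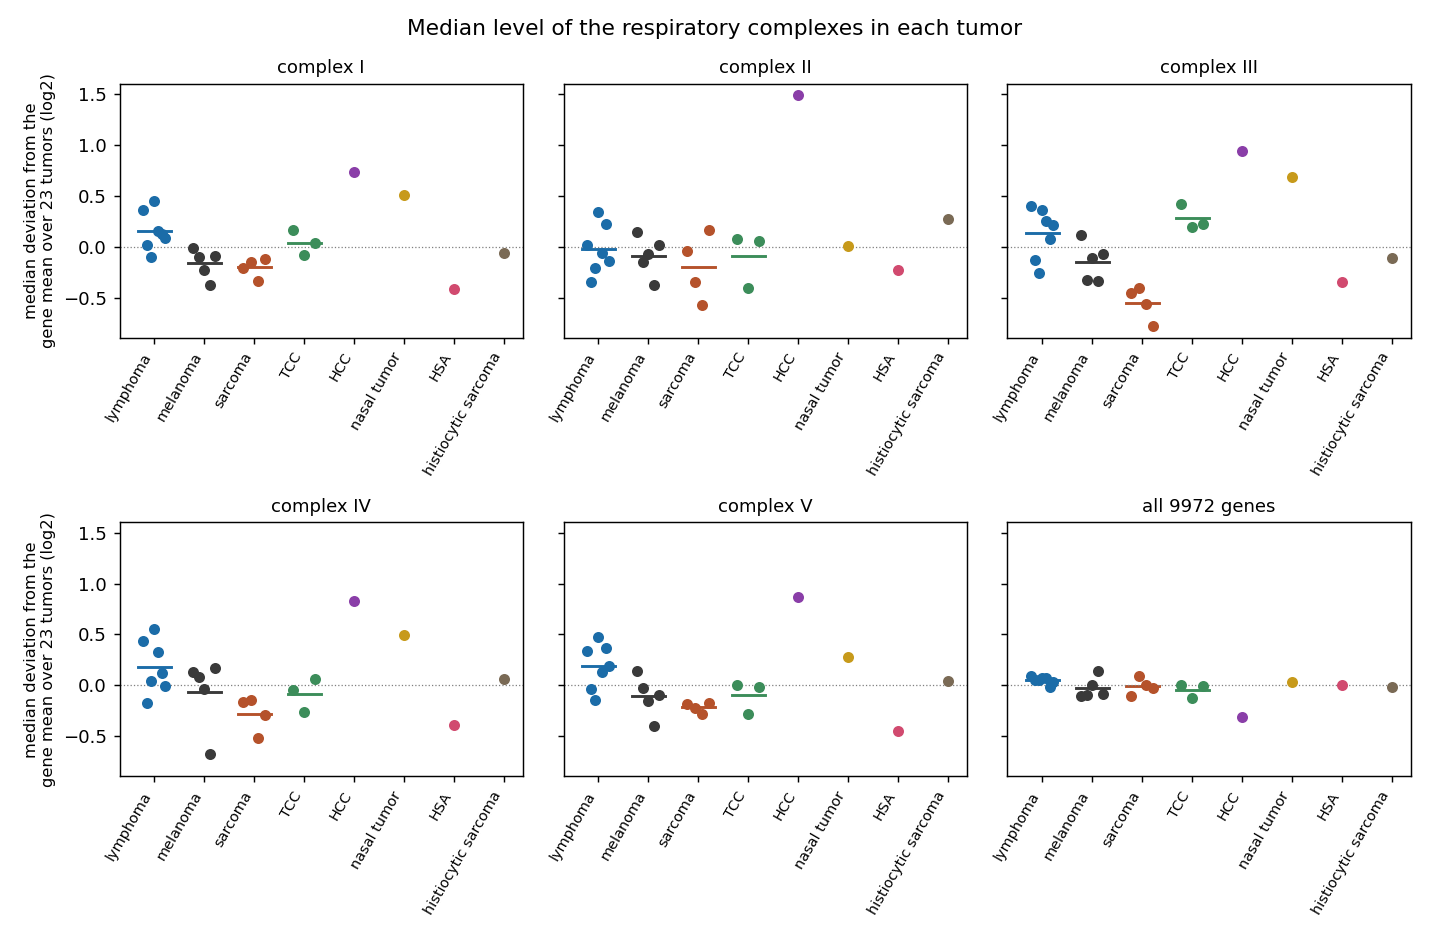
Median over the genes of each complex of the deviation from the gene mean over 23 tumors, in log2 units, with 1 point per tumor, a bar at the mean of each type with replicates, and the same median over all 9972 genes in the last panel. The HCC is highest in every complex, from 0.73 to 1.49, and the 4 sarcomas lie together at the bottom of the complex III panel.

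Next, limma was fitted once to the 19 arrays of the 4 replicated types, and each type was set against the mean of the other 3, every type weighing the same. Genes with an adjusted p under 0.05 are said to be called. The 4 comparisons share their tumors, so a gene that is high in 1 type is pulled down in the others. Over the 4 types together, the F test called 15 of the 62 OXPHOS genes (24.2%), a smaller share than among all genes, of which 35.6% were called. The called genes were 7 of 35 in complex I, 0 of 4 in complex II (also 0 at an unadjusted p under 0.05), 4 of 8 in complex III, 2 of 5 in complex IV and 2 of 10 in complex V. The count fell to 9 without TCC 0 and to 9 without STS_0. As to which type had the highest mean of the 4, lymphoma did for 39 of the 62 genes (62.9%, against 36% of all genes), TCC for 15, melanoma for 5 and sarcoma for 3. The lowest mean was found in sarcoma for 32 genes (51.6%, against 22.9% of all genes), in melanoma for 18, in TCC for 9 and in lymphoma for 3. Sarcoma had the lowest mean for all 8 genes of complex III.

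In lymphoma, 13 OXPHOS genes were called higher and 1 lower than the mean of melanoma, sarcoma and TCC. The share called higher was 21%, against 17.1% of all genes tested, and the share called lower was 1.61%, against 15.9%. The log2 fold change was positive for 54 of the 62 genes, with a median of 0.27 (0.07 over all genes), so that most differences were small and ran the same way. The called genes came from 4 of the complexes, 4 from complex I (NDUFV1, NDUFS5, NDUFB8 and NDUFA2), 2 from complex III (UQCRC1 and UQCRC2), 3 from complex IV (COX4I1, COX5B and COX7A2L) and 4 from complex V (ATP5MC2, ATP5F1C, ATP5PO and ATP5F1A). Without lymphoma 0 the count of 14 was 8, and without lymphoma 5 it was 9. With the 3' over 5' ratio as a covariate, 11 of the 14 remained called and the median fold change of the 62 genes was 0.23 (0.04 over all genes). Of 4 proliferation genes, 3 were also called higher in lymphoma, with a mean of 10.29 to 11.52 in lymphoma, against 9.13 to 10.47 in melanoma, 9.06 to 10.31 in sarcoma and 9.85 to 10.13 in TCC. All 6 fibroblast genes were called lower, with a mean of 8.00 to 9.68 in lymphoma and 10.20 to 13.20 over the tumors of the other 3 types. The part of proliferation and of fibroblasts in the lymphoma differences was not tested.

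NDUFV1, the subunit that binds NADH and starts the electron path of complex I, showed the largest of these differences. Its level was 9.88 at the lowest, 10.49 at the median and 11.27 at the highest in the 7 lymphomas, against 8.96, 9.67, 9.80, 9.84 and 10.10 in melanoma, 9.65, 9.71, 9.79 and 10.09 in sarcoma and 9.65, 10.03 and 10.22 in TCC. Lymphoma 2 and lymphoma 5 lay within the range of the other types, and the other 5 lymphomas lay above all 12 tumors of those types. The log2 fold change was 0.78 ± 0.20 (SE; limma, adjusted p = 0.00624). NDUFS5, an accessory subunit on the intermembrane side of complex I, was 12.53 to 13.16 with a median of 12.87 in the lymphomas, against 12.00 to 12.77 in melanoma, 11.44 to 12.19 in sarcoma and 12.41 to 12.75 in TCC. All 7 lymphomas lay above the 4 sarcomas (log2 fold change 0.63 ± 0.15, adjusted p = 0.00431). The genes for the large core proteins of complex III were both higher in lymphoma, UQCRC2 by 0.74 ± 0.19 (adjusted p = 0.00695) and UQCRC1 by 0.57 ± 0.16 (adjusted p = 0.0117). UQCRC2 was 9.01 to 10.14 in the lymphomas, against 8.08 to 9.28 in melanoma, 7.99 to 8.97 in sarcoma and 8.96 to 9.20 in TCC, with only lymphoma 1 inside the range of the other types. ATP5MC2, a gene for the membrane ring of ATP synthase, was higher by 0.60 ± 0.20 (adjusted p = 0.0305), and this call was lost without any one of lymphomas 0, 2, 3 and 5 or TCC 2.

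The 1 gene called lower in lymphoma was COX7A1. Its level was 8.16 to 9.51 in the 7 lymphomas with a median of 9.0, against 10.96, 11.16, 11.42, 11.44 and 12.55 in melanoma, 10.01, 10.92, 11.81 and 12.96 in sarcoma and 7.99, 8.36 and 9.48 in TCC. The lymphomas and TCC thus shared a low range that did not touch that of the melanomas and sarcomas. The gene was called in each of the 4 comparisons, by -1.63 ± 0.34 in lymphoma (adjusted p = 0.00121), 1.87 ± 0.38 in melanoma (adjusted p = 0.00468), 1.76 ± 0.40 in sarcoma (adjusted p = 0.0119) and -1.99 ± 0.45 in TCC (adjusted p = 0.00502). The sarcoma call was lost without Sarcoma_1 and the TCC call without TCC 2. Among the tumors with no replicate, COX7A1 was 11.03 in the HCC, 11.96 in the nasal tumor and 11.80 in the histiocytic sarcoma, and it was 9.997 in the HSA, all of them above every lymphoma and TCC. The mean of 16 skeletal muscle genes was low in all 4 types, with 5.66 to 5.81 in melanoma and 5.30 to 7.39 in sarcoma, beside 5.25 to 5.55 in lymphoma and 5.23 to 5.68 in TCC. Sarcoma_1, the tumor with the highest COX7A1, had a mean of 5.30 and 0 of the 16 genes above 9. The mean of 6 fibroblast genes ran from 10.20 to 12.97 in melanoma and 12.56 to 13.20 in sarcoma, beside 8.00 to 9.68 in lymphoma and 10.28 to 11.66 in TCC, and its part in the difference was not tested. In the histiocytic sarcoma, the COX7A1 level of 11.80 stood beside a mean of 11.26 for the muscle genes, and in the nasal tumor and the HCC beside means of 5.39 and 5.20. COX7A1 was read by 1 probeset.

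**Figure D2:**
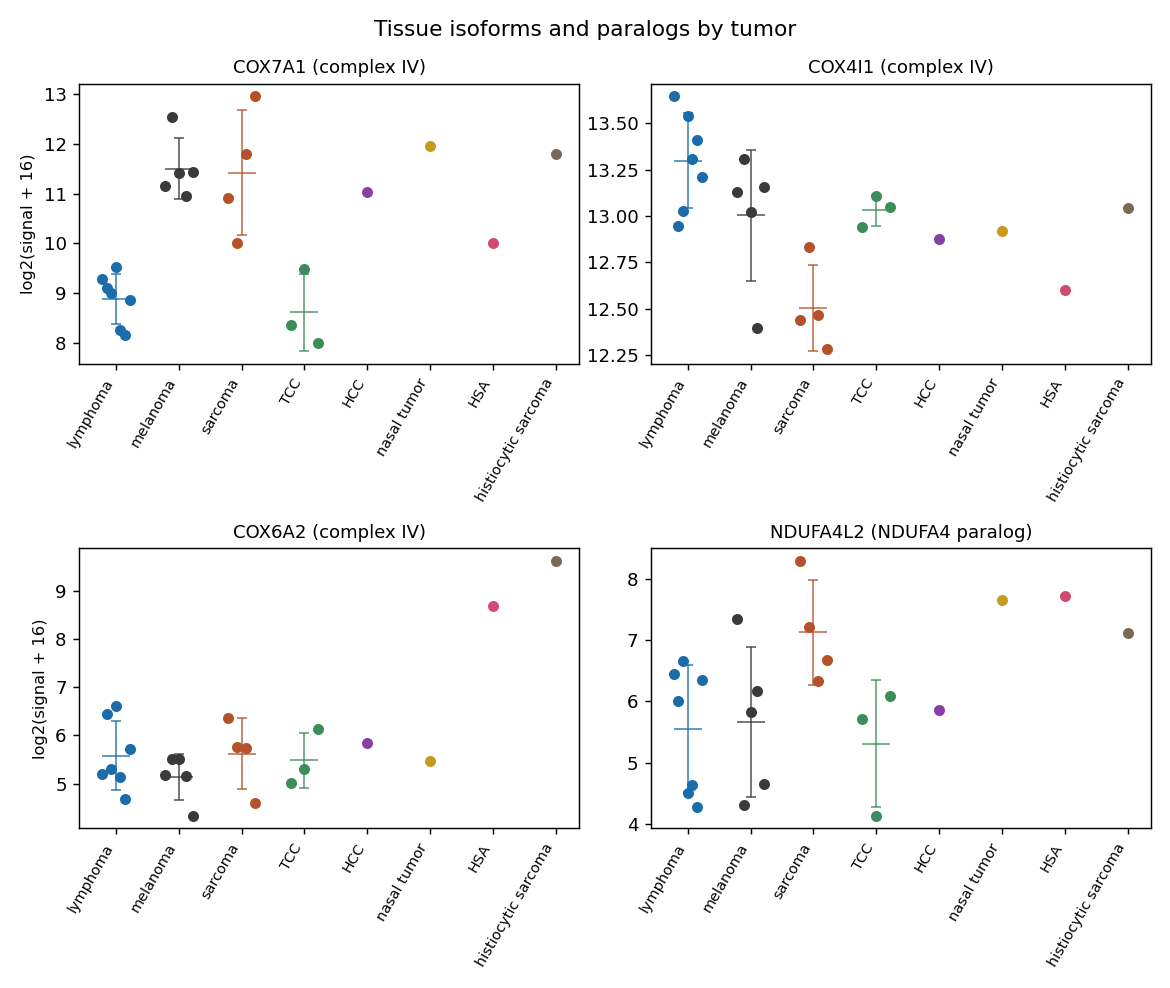
Level of COX7A1, COX4I1, COX6A2 and NDUFA4L2 in each tumor, as log2(signal + 16), with 1 point per tumor and, for the 4 types with replicates, the mean ± SD. COX7A1 separates melanoma and sarcoma, at 10.01 to 12.96, from lymphoma and TCC, at 7.99 to 9.51, while COX6A2 is above 6.61 in the histiocytic sarcoma and the HSA alone.

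The other genes with tissue isoforms or paralogs ran differently. COX4I1, the widely made form of the subunit that COX4I2 replaces in lung and under low oxygen, was 12.95 to 13.64 in the lymphomas with a median of 13.31, against 12.40 to 13.31 in melanoma, 12.28 to 12.83 in sarcoma and 12.94 to 13.11 in TCC. Its log2 fold change was 0.45 ± 0.14 in lymphoma (adjusted p = 0.0191) and -0.61 ± 0.17 in sarcoma (adjusted p = 0.0322). COX4I2 was dim throughout, at 5.23 to 7.65, with its highest value in STS_1 and 6.66 in the HCC. COX6A2, the muscle form of another small complex IV subunit, was 9.62 in the histiocytic sarcoma and 8.68 in the HSA, against 4.33 to 6.61 in the other 21 tumors. In the histiocytic sarcoma this stood beside a high level of muscle genes, such as ACTA1 at 13.10 and MYLPF, a myosin light chain of fast muscle, at 12.77. In the HSA, the mean of the 16 skeletal muscle genes was 6.37, behind the histiocytic sarcoma (11.26) and STS_0 (7.39). Of these genes, the HSA had ACTA1 at 7.82, DES at 8.84, TNNI2 at 8.77 and MYLPF at 4.28. In it, 1 of the 16 was above 9 (NEB, at 10.64), and NEB was also 9.90 to 11.36 in the melanomas. The HSA had the highest mean of 6 heart and smooth muscle genes (8.66, against 5.58 to 7.48 in the other tumors). Its smooth muscle myosin MYH11 was 13.04 and its cardiac actin ACTC1 5.77, and the part of muscle tissue in its COX6A2 level was not tested. NDUFA4L2 had 6.33, 6.68, 7.21 and 8.29 in the 4 sarcomas, against 4.28 to 6.67 in the lymphomas, 4.31 to 7.35 in melanoma and 4.13 to 6.08 in TCC. The groups overlapped and the difference in sarcoma did not pass the test (log2 fold change 1.62 ± 0.58, adjusted p = 0.0941). Its paralog NDUFA4 was 10.79 to 11.99 in sarcoma, against 11.81 to 12.65 in the lymphomas, 11.11 to 12.36 in melanoma and 12.15 to 12.84 in TCC (log2 fold change -0.74 ± 0.23 in sarcoma, adjusted p = 0.0588). It differed among the 4 types by the F test (adjusted p = 0.0289). COX8A and COX7A2L did not pass the F test (adjusted p = 0.34 and 0.117), although COX7A2L was called higher in lymphoma (0.47 ± 0.18, adjusted p = 0.0482).

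In sarcoma, 6 OXPHOS genes were called lower and 1 higher than the mean of lymphoma, melanoma and TCC. The share called lower was 9.68%, against 3.04% of all genes tested, and the share called higher was 1.61%, against 4.84%. The lower genes were ATP5MC2 (-0.84 ± 0.24, adjusted p = 0.0384), NDUFS5 (-0.68 ± 0.18, adjusted p = 0.028), UQCRC1 (-0.67 ± 0.19, adjusted p = 0.0363), NDUFAB1 (-0.67 ± 0.18, adjusted p = 0.0245), UQCRFS1 (-0.64 ± 0.17, adjusted p = 0.0261) and COX4I1, and the higher one was COX7A1. The log2 fold change was negative for 53 of the 62 genes, with a median of -0.26 (-0.04 over all genes). All 4 sarcomas had a high mean level of fibroblast genes (12.56 to 13.20), and its part in these differences was not tested. The calls rested on few tumors. Without Sarcoma_1, 0 of the 62 genes were called (17 at an unadjusted p under 0.05 by limma), without STS_0 2 were, and without STS_1 or without TCC 0 4 were. When only the 2 tumors labelled STS stood for sarcoma, 2 were called.

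Complex III was the lowest of the complexes in sarcoma. All 8 of its genes had a negative log2 fold change, with a median of -0.63, while the median was -0.18 for complex I, -0.12 for II, -0.17 for IV and -0.23 for V. UQCRFS1, the Rieske iron-sulfur protein that takes the electrons from ubiquinol, was 11.15, 11.39, 11.50 and 11.55 in the 4 sarcomas, against 11.45 to 12.31 in the lymphomas, 11.46 to 12.47 in melanoma and 12.08 to 12.17 in TCC. Only lymphoma 2 (11.45) and melanoma 3 (11.46) fell in the range of the sarcomas. UQCRC1 was 10.27, 10.47, 10.77 and 11.26 in sarcoma, against 11.15 to 12.12 in the lymphomas, 10.63 to 11.35 in melanoma and 11.34 to 11.51 in TCC. CYC1, the cytochrome c1 that hands electrons on to cytochrome c, was 8.30, 8.35, 8.71 and 8.80 in sarcoma, against 8.76 to 10.21 in the lymphomas, 8.87 to 9.95 in melanoma and 9.18 to 10.35 in TCC. Its difference was the largest of the complex (log2 fold change -0.91 ± 0.28), just outside the threshold (adjusted p = 0.0511), with only lymphoma 5 (8.76) inside the range of the sarcomas. The remaining 5 genes of the complex were not called in sarcoma, among them UQCRC2 (-0.68 ± 0.23, adjusted p = 0.0773, with 3 of its 4 probesets lower and a dim one 0.35 higher) and UQCRQ, a small subunit (-0.61 ± 0.22, adjusted p = 0.0883). At an unadjusted p under 0.05 by limma, 6 of the 8 genes were lower, against 1066 of all 9972 genes.

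**Figure D3:**
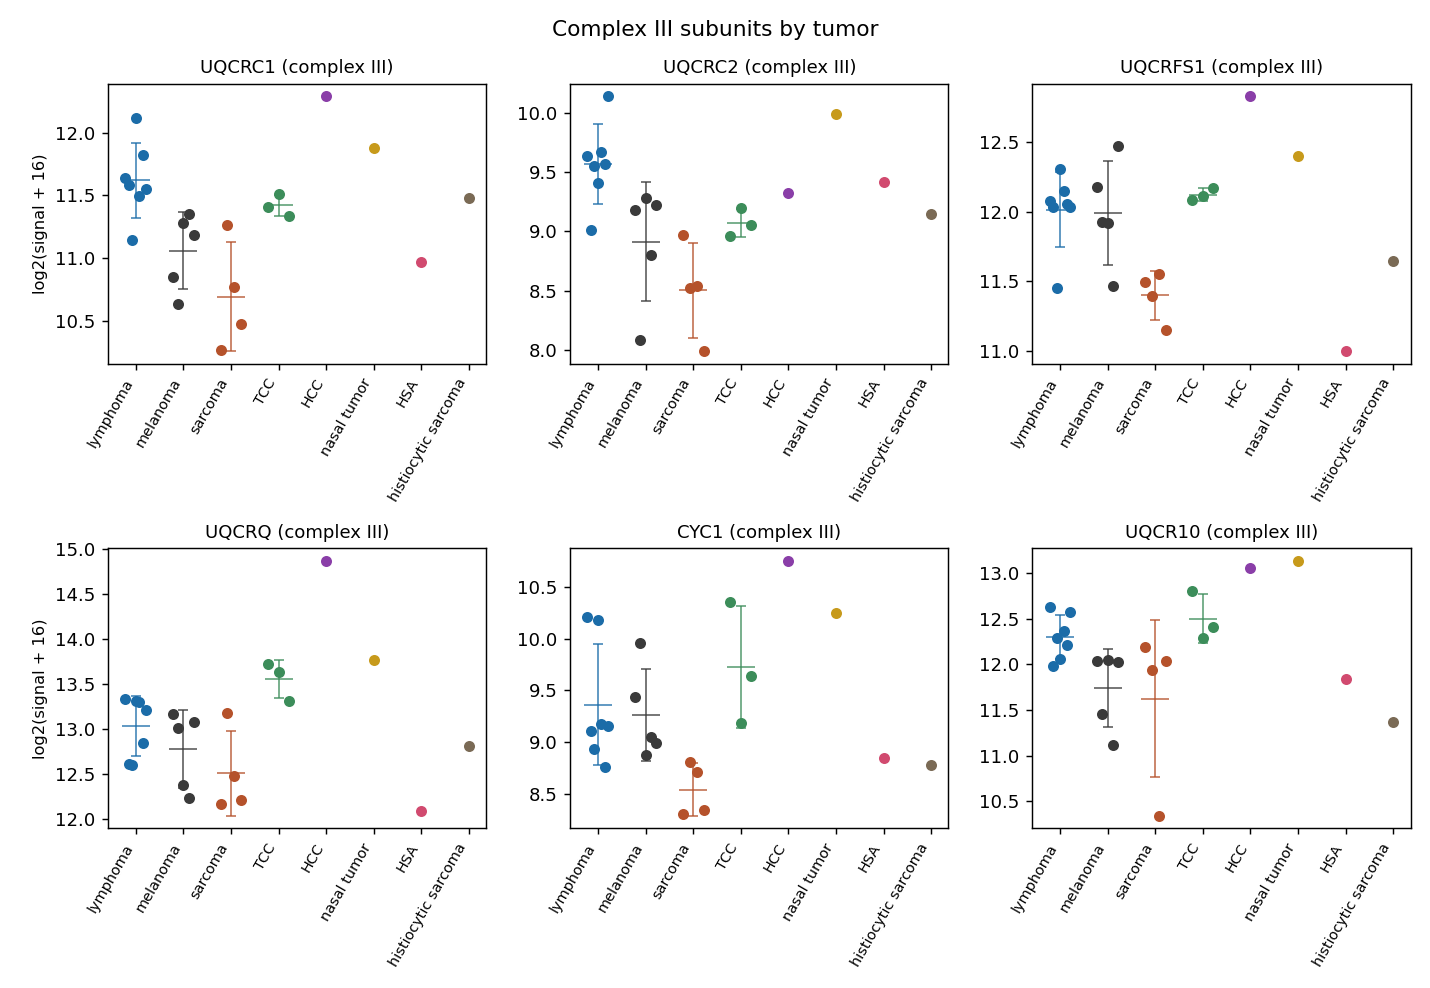
Level of 6 of the 8 complex III genes in each tumor, as log2(signal + 16), with 1 point per tumor and, for the 4 types with replicates, the mean ± SD. The sarcomas are lowest of the 4 types on average for all 6 genes, and the HCC is highest of the 23 tumors for UQCRC1, UQCRFS1, UQCRQ and CYC1 but not for UQCRC2, at 9.32, or UQCR10, at 13.05.

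The 4 sarcomas differed most among themselves in complex II, where the SD of their median deviations was 0.33, beside 0.10 in complex I, 0.17 in III, 0.17 in IV and 0.05 in V. The complex II median was 0.16 in Sarcoma_1, -0.04 in STS_0, -0.35 in Sarcoma_0 and -0.57 in STS_1. SDHB, the iron-sulfur subunit, was 12.71 in Sarcoma_1 and 10.54 in STS_1, the lowest of the 23 tumors, with 12.01 in STS_0 and 11.34 in Sarcoma_0. ATP5MC2, the gene with the largest called decrease, was 11.46 in STS_0, 11.95 in Sarcoma_1, 12.25 in STS_1 and 12.62 in Sarcoma_0, against 12.69 to 13.88 in the lymphomas, 12.19 to 13.61 in melanoma and 12.46 to 13.05 in TCC. NDUFAB1, which carries the growing acyl chain of mitochondrial fatty acid synthesis, was 8.17 to 8.68 in sarcoma, against 8.86 to 9.56 in the lymphomas, 8.80 to 9.36 in melanoma and 9.0 to 9.20 in TCC, and the 4 sarcomas lay below all 15 tumors of the other 3 types. Its 6 probesets all averaged lower in sarcoma, by 0.37 to 0.86.

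In melanoma, 2 OXPHOS genes were called higher (3.23%, against 3.13% of all genes tested) and 0 lower (0%, against 2.39%). Both shares lay near or under those of all genes. At an unadjusted p under 0.05 by limma, 7 of the 62 genes were lower, against 1069 of all 9972 genes. The genes called were COX7A1 and NDUFA9, a subunit of complex I at the junction of its arms. NDUFA9 was 11.63, 11.68, 11.99, 12.34 and 13.57 in melanoma, against 11.12 to 12.08 in the lymphomas, 10.28 to 11.29 in sarcoma and 11.09 to 11.45 in TCC. The melanomas lay above every sarcoma and TCC but overlapped the lymphomas, and melanoma 0 was the highest of the 23 tumors. The log2 fold change was 0.97 ± 0.27 (adjusted p = 0.0355), with 1.0 and 0.95 from its 2 probesets. The call was lost without any one of melanomas 0, 1 and 3 or TCC 0 and 1, and with the 3' over 5' ratio as a covariate, and the ratio in melanomas 0 and 1 (5.31 and 5.40) was among the highest measured. Without melanoma 0, without melanoma 1 or without TCC 0, 1 gene was called in place of 2.

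In TCC, 2 genes were called higher (3.23%, against 7.84% of all genes tested) and 1, COX7A1, lower (1.61%, against 5.42%). UQCRQ was 13.31, 13.63 and 13.72 in TCC, against 12.60 to 13.33 in the lymphomas, 12.23 to 13.17 in melanoma and 12.16 to 13.18 in sarcoma, so that only TCC 2 (13.31) lay within the range of another type (log2 fold change 0.79 ± 0.24, adjusted p = 0.0332). NDUFA8, an accessory subunit of complex I, was 11.37, 12.48 and 12.96 in TCC, against 11.07 to 12.19 in the lymphomas, 10.45 to 11.70 in melanoma and 10.98 to 11.67 in sarcoma (0.92 ± 0.29, adjusted p = 0.042). Each complex III gene had a positive log2 fold change in TCC, with a median of 0.37, while the medians of complexes II and V were -0.03 and -0.02. Of the 3 genes called, 0 remained without TCC 2 (4 genes at an unadjusted p under 0.05) and 1 without TCC 0, so these calls rested on single tumors. The UQCRQ call was lost without any one of the 3 TCC, and the NDUFA8 call under 16 of 32 alternatives.

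**Figure D4:**
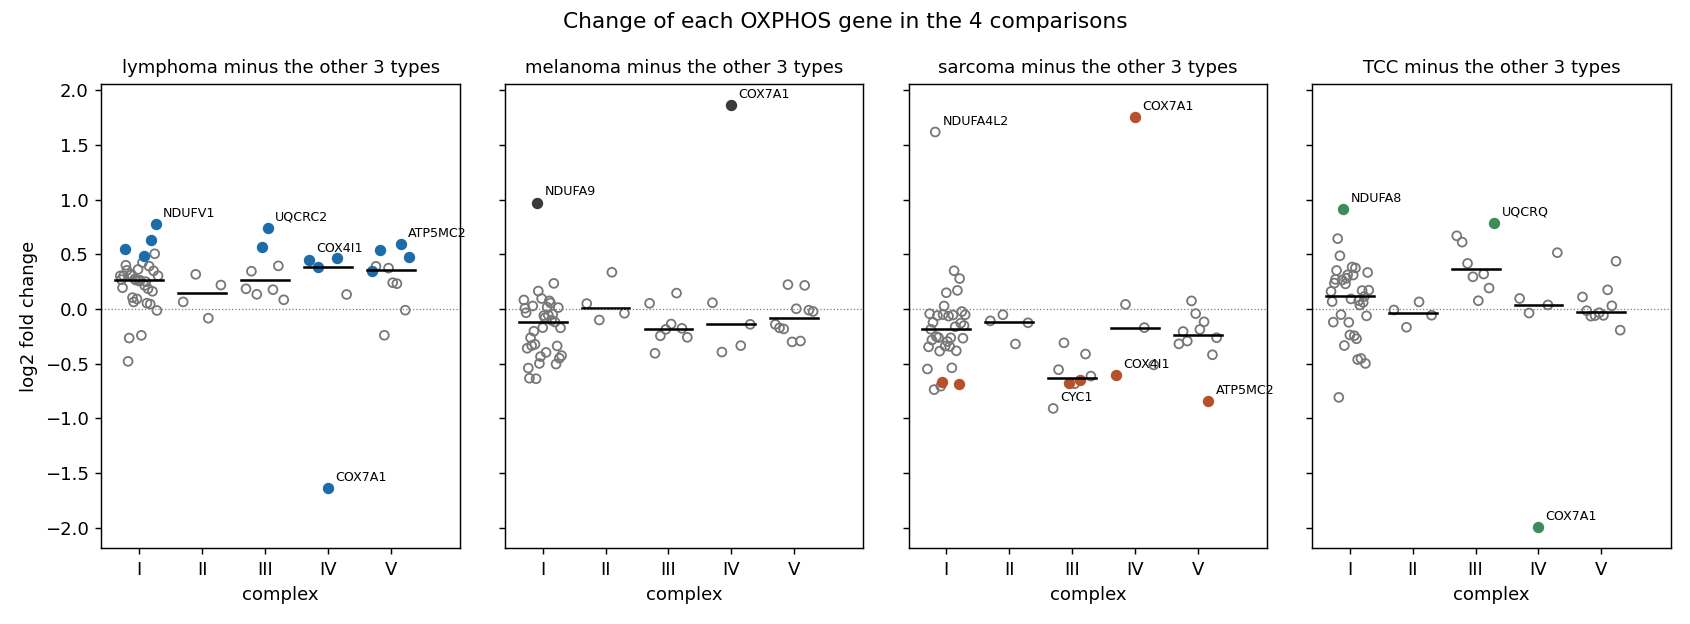
Log2 fold change of each of the 62 OXPHOS genes in the 4 comparisons, by complex, with filled points for genes called at an adjusted p under 0.05, open points for the others and a bar at the median of the complex. Most genes sit slightly above 0 in lymphoma and below 0 in sarcoma, with medians of 0.27 and -0.26, and COX7A1 runs against both.

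Complex II is the only complex with no subunit encoded in mitochondrial DNA and is also an enzyme of the citrate cycle. It had 0 of its 4 genes called in each of the 4 comparisons by limma (also 0 at an unadjusted p under 0.05). Of all genes, 2.39% to 17.1% were called in a given direction, and 920 to 2336 of 9972 at the unadjusted threshold. With only 4 genes, a count of 0 does not set complex II apart from these shares. Its catalytic subunit SDHA averaged 12.23 ± 0.29 over the 7 lymphomas, 12.21 ± 0.34 over the 5 melanomas, 12.10 ± 0.27 over the 4 sarcomas and 12.17 ± 0.41 over the 3 TCC (SD), and its log2 fold changes lay between -0.11 and 0.07 with standard errors of 0.16 to 0.21. Adjusted p-values of the F test were 0.945 for SDHA, 0.726 for SDHB, 0.48 for SDHC and 0.565 for SDHD. The widest spread among them was that of SDHC in melanoma, at 10.30, 11.18, 11.77, 11.95 and 12.24.

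The HCC, nasal tumor, HSA and histiocytic sarcoma had no replicate and could not be tested, so each gene was set against its mean over the remaining 22 tumors. In the HCC, 58 of the 62 OXPHOS genes lay above that mean, against 38.5% of all genes, and 32 (51.6%, against 9.21% of all genes) were at their highest level of the 23 tumors. The median difference was 0.94, against -0.32 over all genes, and 0.61 after quantile normalization. It was 0.76 in complex I, 1.55 in complex II, 0.98 in complex III, 0.87 in complex IV and 0.90 in complex V. Hepatocytes are known to be rich in mitochondria. The 10 hepatocyte genes were all above 9 in this tumor, and their part in these differences was not tested. ATP5MC1 was 14.10 in the HCC, and at most 13.38 in the other tumors (difference 2.11). UQCRQ was 14.86, against 12.09 to 13.76 (difference 1.93). Complex II also stood high here. SDHB was 13.61, against 10.54 to 12.78 in the other tumors (difference 1.88). SDHC was 12.95, against 10.30 to 12.24 (1.70), and SDHA was 13.64, against 11.70 to 12.89 (1.41). SDHD, at 10.71, lay within the range of 9.70 to 10.76 (0.40). The genes that stood lowest in the HCC were NDUFB5, at 9.65 against 9.49 to 11.12 (-0.70), NDUFA4L2, at 5.87 against 4.13 to 8.29 (-0.23), and COX4I1, at 12.87 against 12.28 to 13.64 (-0.12). The probesets of NDUFB5 differed in size, at -1.26 and -0.14, and of the 4 probesets of UQCRC2, 3 were higher in the HCC by 0.83 to 1.33 and 1 dim one was lower by 2.66. The HCC array also had a high 3' over 5' ratio (5.38) and the largest share of probesets below a signal of 16 (27.2%), and the part of these in the differences was not tested.

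**Figure D5:**
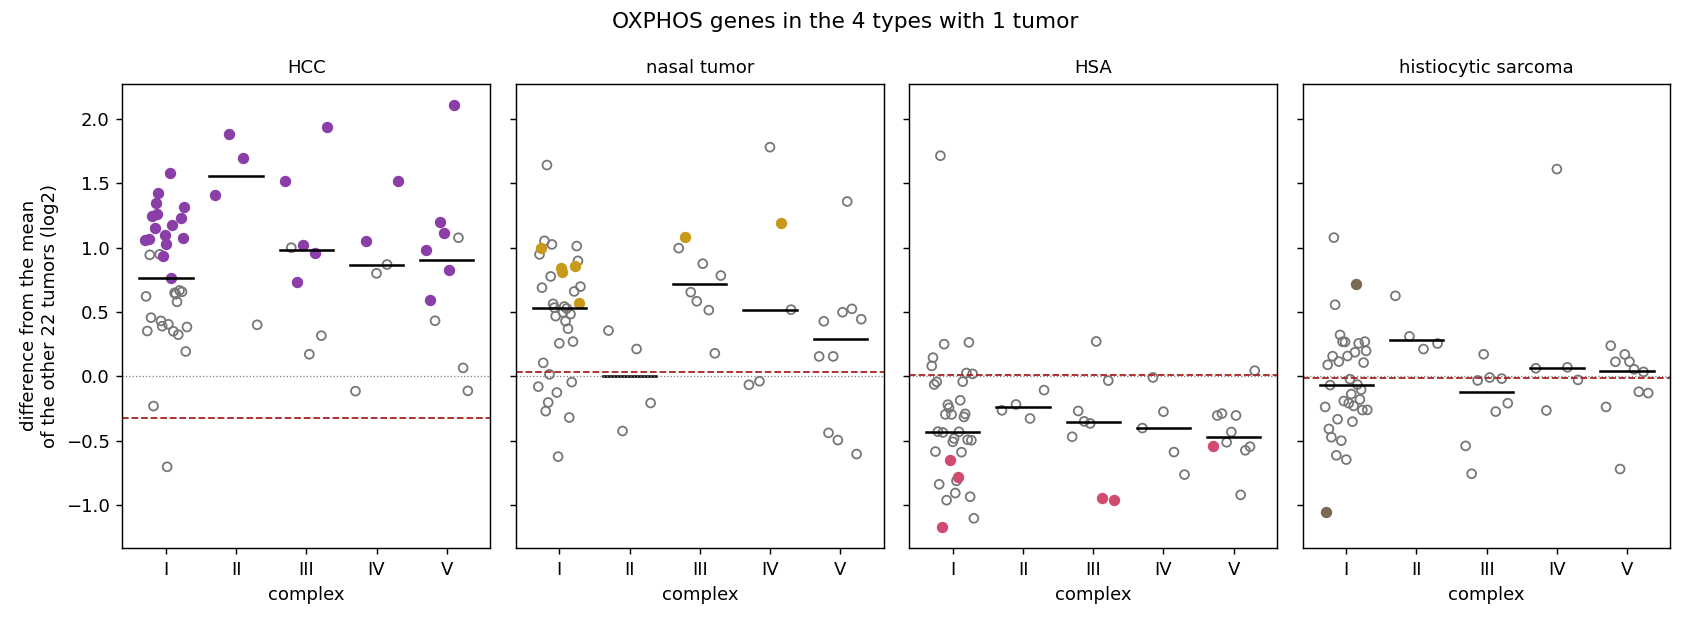
Difference of the HCC, the nasal tumor, the HSA and the histiocytic sarcoma from the mean of the other 22 tumors for each of the 62 OXPHOS genes, in log2 units and by complex, with filled points for genes at their highest or lowest of the 23 tumors, a bar at the median of each complex and a dashed line at the median over all 9972 genes. In the HCC the complex medians are 0.76 to 1.55 above the other tumors with the dashed line at -0.32, and in the HSA all 5 lie below 0.

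The nasal tumor, a carcinoma per the study's text, had 48 of 62 genes above the mean of the other 22 tumors, against 51.7% of all genes, and a median difference of 0.51 (0.03 over all genes). Complex III stood highest, by a median of 0.72 with all 8 genes above the mean, and complex II least, with a median of 0.00 and 2 of 4 genes above. Its largest differences were in COX7A1 (1.78), NDUFA4L2 (1.64, at 7.66) and ATP5MC1 (1.36, at 13.38). NDUFB3, a small accessory subunit of complex I, was lowest (12.36, difference -0.62), followed by ATP5MC3 (12.46, -0.60) and ATP5IF1 (13.50, -0.50). The 3 genes that encode the same ring protein of ATP synthase thus did not move together in this tumor: ATP5MC1 was higher, ATP5MC2 was 0.52 higher and ATP5MC3 was lower. When the HCC was left out of the tumors it was set against, 49 of 62 genes were above the mean, with a median difference of 0.55.

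In the HSA, 9 of 62 genes lay above the mean of the other 22 tumors, against 50.5% of all genes, and the median difference was -0.36 (0.01 over all genes). The median was negative in each complex, from -0.24 in complex II to -0.47 in complex V, and 6 genes were at their lowest of the 23 tumors (9.68%, against 3.29% of all genes). NDUFA5, an accessory subunit of complex I, was 11.73 in the HSA, against 12.00 to 13.96 in the other tumors (difference -1.17). NDUFV3 was 8.86 (-1.10) and UQCRQ was 12.09 (-0.96), while NDUFA4L2 was 7.73 (1.71), UQCRC2 9.42 (0.27) and NDUFS7 8.90 (0.26). With the HCC left out of the other tumors, 10 genes were above the mean and the median difference was -0.32. The histiocytic sarcoma lay near the middle, with 29 of 62 genes above the mean and a median difference of -0.02 (also -0.02 over all genes). All 4 complex II genes were above the mean there (median 0.28), and 1 of 8 complex III genes was (median -0.12). Its highest genes were COX7A1 (1.61), NDUFA4L2 (1.08) and NDUFS1, the largest subunit of complex I (0.72, at 10.36, the highest of the 23 tumors), and its lowest were NDUFA11 (-1.06), UQCR10 (-0.76) and ATP5F1D (-0.72). This tumor had 14 of 16 skeletal muscle genes above 9, and their part in its COX7A1 level and its other differences was not tested.

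Genes that build, feed or regulate the respiratory chain were set beside its subunits. Their counts are to be read against the shares of all genes called, which were 17.1% higher and 15.9% lower in lymphoma, 3.13% and 2.39% in melanoma, 4.84% and 3.04% in sarcoma, and 7.84% and 5.42% in TCC. At an unadjusted p under 0.05 by limma, 2336 of all 9972 genes were higher and 2012 lower in lymphoma. These numbers were 920 and 1069 in melanoma, 1132 and 1066 in sarcoma, and 1345 and 1305 in TCC. The unadjusted counts of the lists are to be read against them. Of 38 assembly factors, which help to put the complexes together, 7 were called higher and 0 lower in lymphoma (12 and 0 at an unadjusted p under 0.05 by limma), with a median log2 fold change of 0.32. The 7 calls are a share near that of all genes called higher, while the 0 lower lie under that of all genes called lower. The copper chaperone COX17 rose by 1.06 ± 0.20 (adjusted p = 0.000641), NDUFAF2 by 1.06 ± 0.30 (adjusted p = 0.0122) and the membrane insertase OXA1L by 0.48 ± 0.15 (adjusted p = 0.0188). In TCC, NDUFAF2 fell by 1.69 ± 0.40 (adjusted p = 0.00769). None of the 38 were called in melanoma or sarcoma (0 in either direction, with 6 and 5 lower and 0 higher at an unadjusted p under 0.05 by limma). Of 70 mitochondrial ribosomal protein genes, whose products translate the subunits encoded by mitochondrial DNA, 12 were higher and 0 lower in lymphoma (median 0.29), 0 higher and 3 lower in sarcoma (median -0.23), and 0 higher and 1 lower in melanoma and in TCC. The 12 calls in lymphoma and the 3 in sarcoma are again shares near those of all genes. At an unadjusted p under 0.05 by limma the counts higher and lower were 18 and 0 in lymphoma, 0 and 15 in sarcoma, 3 and 9 in melanoma, and 5 and 2 in TCC.

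Of 14 regulators of mitochondrial biogenesis, 2 were called higher (TFAM and POLG2, a subunit of the mitochondrial DNA polymerase) and 1 lower in lymphoma, where 12 had a positive log2 fold change (median 0.40). In the other types 1 was lower in melanoma, 1 higher in TCC and 0 called in sarcoma (0 higher and 1 lower at an unadjusted p under 0.05 by limma). TFAM, which packages and transcribes mitochondrial DNA, was 0.77 ± 0.15 higher in lymphoma (adjusted p = 0.000561) and 0.77 ± 0.16 lower in melanoma (log2 fold change -0.77, adjusted p = 0.00618). PPARGC1A, the coactivator PGC-1alpha, was the 1 regulator called lower in lymphoma (-2.18 ± 0.51, adjusted p = 0.00317) and rose in TCC (2.99 ± 0.67, adjusted p = 0.00517). Of 12 citrate cycle genes, 3 were higher in lymphoma (IDH2, IDH3B and OGDH) and 3 lower in sarcoma (SUCLG2, IDH3B and IDH2), 1 was higher (SUCLG2) and 1 lower (OGDH) in TCC, and 0 were called in melanoma (1 higher and 2 lower at an unadjusted p under 0.05 by limma). The medians were 0.29 in lymphoma and -0.27 in sarcoma. Of 17 genes of mitochondrial structure and transport, 4 were higher in lymphoma (median 0.33), 4 lower in sarcoma (median -0.48), 2 higher in melanoma and 1 higher in TCC. The ATP carrier SLC25A5 fell most clearly in sarcoma (-1.24 ± 0.19, adjusted p = 0.000593), and the chaperone HSPD1 fell by 1.07 ± 0.22 (adjusted p = 0.00701). Of 11 genes of pyruvate entry and lactate, 1 was higher and 1 lower in lymphoma (PDHB, 0.62 ± 0.23, adjusted p = 0.0427, and the kinase PDK2, -1.69 ± 0.40, adjusted p = 0.00321), and PDK1 (-1.68 ± 0.42, adjusted p = 0.0218) and PDK4 (-1.82 ± 0.45, adjusted p = 0.0202) were lower in melanoma. The fold changes of these lists can be read against the medians over all genes, 0.07 for lymphoma, -0.05 for melanoma, -0.04 for sarcoma and -0.08 for TCC. Their counts are to be read against the shares of all genes given above, such as 17.1% called higher in lymphoma and 3.04% lower in sarcoma. With 11 to 17 genes per list, such shares rest on few genes.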

How the data were processed

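Tumor RNA of 23 dogs was amplified with the NuGEN Ovation Pico WTA system and hybridised to 1 Affymetrix Canine Genome 2.0 array each. The authors made the deposited intensity values with MAS5, which gives each probeset a linear signal and brings all arrays to 1 trimmed mean (500.1, trimming 2% at either end). Precision is limited by the number of arrays. Of 42860 probesets other than 175 controls, 29254 map to 1 gene symbol, 439 map to several and were not used, and 13167 are unnamed here; symbols were not updated. Signals were turned to log2(signal + 16), which understates the change of dim genes, and averaged per gene. Types were taken from the labels, and the arrays labelled STS and sarcoma were joined.

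Each replicated type was set against the equally weighted mean of the other 3, two-sided, with limma 3.58.1 under R 4.3.3 (lmFit and eBayes with a variance trend), with Benjamini-Hochberg adjustment over 9972 genes and no fold minimum, since subunits of constitutive complexes were compared. Each array is a different dog, so p-values measure the spread between dogs. The 3' over 5' ratio averages 5 control pairs. The named genes were, in each comparison, up to 5 called members in each direction; the 8 members with the smallest F test p; in each single tumor the 3 highest and 3 lowest; SDHA, SDHB, SDHC, SDHD, CYC1 and the tissue isoforms; and up to 3 called genes of each context list. This gave 35 members. The other called members and the muscle genes ACTA1, DES, TNNI2, MYLPF, NEB, MYH11 and ACTC1 were named after their values were seen. So were the markers UPK1A, UPK1B, UPK2, UPK3A, DCT, TYR, TYRP1, MLANA, SLC45A2 and CD79B. In simulated data in which 100 of the 9972 genes were changed at each size, a log2 change of 1 was recovered in 44% (lymphoma), 43% (melanoma), 32% (sarcoma) and 20% (TCC), and a change of 2 in 88%, 77%, 75% and 69%. The changed genes were drawn from all genes, whose median SD within types was 0.56, against 0.37 for the OXPHOS genes. Recovery of the OXPHOS genes by themselves, and of changes under 1, was not simulated. Members, lists and tests were chosen with earlier results of these data known. Alternatives tried were a pseudocount of 1 or 64, quantile normalization, centring on the median, no filter, the brightest probeset, no variance trend, the title number as a block, all tumors as 2 groups, a fold minimum of 1, the 3' over 5' ratio as a covariate, only STS as sarcoma and leaving out each tumor. Leaving out the HCC, from the 2-group fits and from the tumors that the other unreplicated ones were set against, was added after seeing the data. Promoter and protein sequences were not used here.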

Additional observations from a re-analysis of the deposited data

Results flagged for a closer look

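A sample far from the others of its type was looked for in 123 sets of values (the 35 named genes and the complex medians, in lymphoma, melanoma and sarcoma) with Dixon's test, and 6 were found, where chance gives about 6.15. In lymphoma, NDUFB5 was 11.05 in lymphoma 3, with the next value at 10.58 and the lowest at 10.30, and UQCRFS1 was 11.45 in lymphoma 2, with the other 6 at 12.03 to 12.31. In melanoma, ATP5F1D was 6.99 in melanoma 1, against 7.99 to 8.36 in the other 4, and the complex IV median was -0.68 in melanoma 3, against -0.04 to 0.17. In sarcoma, NDUFA9 was 10.28 in STS_0, against 11.16 to 11.29, and UQCR10 was 10.34 in STS_1, against 11.93 to 12.19.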

How the results depend on the processing

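The number in the sample title is shared across types, but tumors with the same number did not deviate together over all kept genes (mean correlation 0.010 over 23 pairs, -0.12 to 0.09, and -0.002 for other pairs). The main fit did not use the number as a pairing. Whether tumors with the same number shared a batch or handling is not stated in the labels and was not tested. With the title number as a replicate block, the F test called 10 members (15 without it), and the counts were 7 for lymphoma (14 without it), 1 for melanoma (2), 4 for sarcoma (7) and 3 for TCC (3).

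No direction reversed for the counts and fold changes named in the comparisons. With all 23 tumors as 2 groups, 6 genes were called in lymphoma and 0 in melanoma, sarcoma and TCC (9, 15 and 2 at an unadjusted p under 0.05 by limma); without the HCC, 13 and again 0, 0 and 0 (9, 14 and 4). The unadjusted counts of these fits, and of those leaving out 1 tumor, have no count over all genes beside them. A fold minimum of 1 left 1 gene, COX7A1, in each comparison. No variance trend left 1 in melanoma, 4 in sarcoma and 1 in TCC, no filter 4 in sarcoma, and only STS as sarcoma 2. With the 3' over 5' ratio as a covariate, 1 was called in melanoma. Centring on the median gave 11 in sarcoma and moved the median of all members in sarcoma to -0.33 from -0.22 and the HSA difference to -0.53 from -0.36. Quantile normalization moved the HCC difference to 0.61 from 0.94 and the median of all genes in the HCC to -0.19 from -0.31. Leaving out 1 tumor gave 9 to 15 genes by the F test, 8 to 14 in lymphoma, 1 to 2 in melanoma, 0 to 8 in sarcoma and 0 to 3 in TCC. COX7A1 in lymphoma was called under all 32 alternatives, and NDUFS5 in lymphoma under 31. The cause of these shifts was not tested. With 3 to 7 tumors per type, a dim gene such as NDUFA4L2 had an SD of 0.86 to 1.22 within types, so only large changes of it could be called.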
